A study of Sus scrofa with 9 samples.

Results

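The genes described are 6 members of the glycoprotein hormone system, the receptors TSHR, FSHR and LHCGR and the hormone subunits TSHB, FSHB and CGA. They were taken by symbol, and all 6 were present in both deposited tables of 5-hydroxymethylcytosine (5hmC), which held 18933 genes for Obese-MSCs versus Lean-MSCs and 18992 for Obese-MSCs with and without vitamin-C. The set was selected on its measured values, because TSHR and FSHR were both low in Obese-MSCs. The Obese and Lean values of every member are therefore given as a description with no test, and so are the vitamin-C values of TSHR and FSHR, because the untreated libraries of that comparison are the same Obese libraries.

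The cells were mesenchymal stem/stromal cells (MSCs), plastic-adherent progenitors grown from subcutaneous abdominal fat of female domestic pigs that entered the study at 3 months of age. Lean pigs received standard chow, and Obese pigs a high-fat/high-fructose diet for 16 weeks. Obese-MSCs were left untreated or received 50 µg/mL vitamin-C over 48 h of culture. Each of the 3 groups had 3 hMeDIP-seq libraries, an assay in which fragments carrying 5hmC are pulled down with an antibody and sequenced. Library numbers are those of the submitters, 7 to 9 for Lean, 1 to 3 for untreated Obese and 4 to 6 for treated Obese. All cells had been expanded in culture to passages 3 to 4. Whether a treated culture shares its pig with an untreated one is not stated in the sources, so p-values cover the spread between these libraries only.

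Thyroid-stimulating hormone, follicle-stimulating hormone and luteinizing hormone are secreted by the pituitary as pairs of a shared alpha subunit, encoded by CGA, and a specific beta subunit, encoded by TSHB, FSHB and LHB. Their receptors form a family of G-protein-coupled receptors with a large leucine-rich-repeat ectodomain, and all signal mainly through Gs, adenylyl cyclase and cAMP. TSHR governs the thyroid and is also known from adipocytes and their precursors, whereas FSHR and LHCGR are best known from the gonads. The 5hmC mark is made from methylated cytosine by the TET dioxygenases, for which vitamin-C is a cofactor, and it marks DNA rather than transcript.

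The deposited values are normalized counts of 5hmC fragments over the exons of a gene. They are not scaled to exon length, so levels are compared between libraries and not between genes. Total normalized counts ran from 494566 to 522269 in the Obese and Lean table and from 547242 to 593846 in the vitamin-C table, and the median gene had 11.9 to 12.9 and 13.1 to 14.2. Sequencing depth is unknown from these files, so no counting interval is given, and a fixed 3 normalized counts served as the floor for fold changes. The same untreated libraries read higher in the vitamin-C table, by a median factor of 1.11, 1.13 and 1.10 for untreated Obese 1, 2 and 3, and every comparison was therefore made within a table. Genes were called high or low here, from the deposited values, with the thresholds of the study, which ask for an unadjusted two-sided p-value of at most 0.05 (equal variances, each gene alone) together with a first mean at least 1.4 times, or at most 0.7 times, the second.

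TSHR, the receptor of thyroid-stimulating hormone, lies on chromosome 7 (Sscrofa11.1, chr7:103768260-103925777), where it overlaps a long non-coding RNA gene that was not in the tables. In the Obese and Lean table its 5hmC level was 11.6, 10.4 and 12.9 normalized counts in Obese 1, 2 and 3, and 19.4, 27.8 and 22.6 in Lean 7, 8 and 9. No Obese library came up to the lowest Lean library, and the Lean libraries were the more dispersed. Obese-MSCs averaged 11.6 ± 1.24 and Lean-MSCs 23.3 ± 4.26 (SD, n = 3 each), which is a ratio of 0.501 and a log2 ratio of −0.998. With any 1 of the 6 libraries left out the log2 ratio stayed between −1.11 and −0.85. Of the 16416 genes with a ratio, those with a group mean above 3 normalized counts, 2.86% had a lower one. Less 5hmC in each cell and fewer cells carrying the mark cannot be told apart in these bulk libraries, here or for any other gene.

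FSHR, the receptor of follicle-stimulating hormone, lies on chromosome 3 (chr3:91607236-91775255). Its level was 12.6, 6.57 and 11.7 normalized counts in Obese 1, 2 and 3, and 26.0, 26.8 and 23.6 in Lean 7, 8 and 9. The groups were again apart, and Obese 2 was the lowest of the 6. The means were 10.3 ± 3.26 and 25.5 ± 1.65 (SD, n = 3 each), with a ratio of 0.404 and a log2 ratio of −1.31 that stayed between −1.48 and −1.07 when single libraries were left out. Of the same genes, 1.17% had a lower ratio.

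LHCGR, the receptor of luteinizing hormone and chorionic gonadotropin, neighbours FSHR on chromosome 3 (chr3:91964415-92023821), with 189 kb between them. Its level was 16.7, 13.1 and 38.0 normalized counts in Obese 1, 2 and 3, and 23.8, 24.8 and 23.6 in Lean 7, 8 and 9. The Lean libraries lay close together, whereas 2 Obese libraries lay below them and Obese 3 above. The means were 22.6 ± 13.4 and 24.1 ± 0.655 (SD, n = 3 each), a log2 ratio of −0.09. Obese 3 decided this value. Without Obese 3 the log2 ratio was −0.69 and LHCGR met the criteria for low 5hmC, and without Obese 2 it was 0.19. LHCGR overlaps GTF2A1L by 32.1 kb in the annotation, and fragments in exons shared by both genes cannot be assigned to one of them. GTF2A1L itself had ratios of 0.738 in Obese-MSCs versus Lean-MSCs and 1.13 with vitamin-C, with overlapping groups in both.

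The hormone subunits all had group means under 3 normalized counts in this table. TSHB (chr4:105553070-105558769), the beta subunit of thyroid-stimulating hormone, had 1.57, 0.937 and 1.20 normalized counts in Obese 1, 2 and 3, and was listed at 0 in Lean 7, 8 and 9. Its 5hmC met the criteria as high in Obese-MSCs, but all of its values were under that floor of 3 normalized counts, and none is given. The values are those of a bottom class of genes rather than of TSHB alone. Within 0.01, 41 other genes had the same values as TSHB in all 3 Obese libraries, and 2 of these were also at 0 in all 3 Lean libraries. In all, 226 genes were at 0 in every Lean library, and 21 of them met the criteria as high.

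FSHB (chr2:30395769-30399282), the beta subunit of follicle-stimulating hormone, had 0.775, 0.952 and 0.0240 normalized counts in Obese 1, 2 and 3, and 1.19, 3.98 and 1.04 in Lean 7, 8 and 9. The groups did not overlap, but the distance between 0.952 and 1.04 was small and the criteria were not met. CGA (chr1:55552675-55569057), the shared alpha subunit, had 1.405, 3.81 and 3.50 in Obese 1, 2 and 3, and 3.37, 0.988 and 4.09 in Lean 7, 8 and 9. Its groups overlapped throughout, and each had 1 library far below the other 2. No fold is given for FSHB or CGA here, since both group means were under 3.

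**Figure D1:**
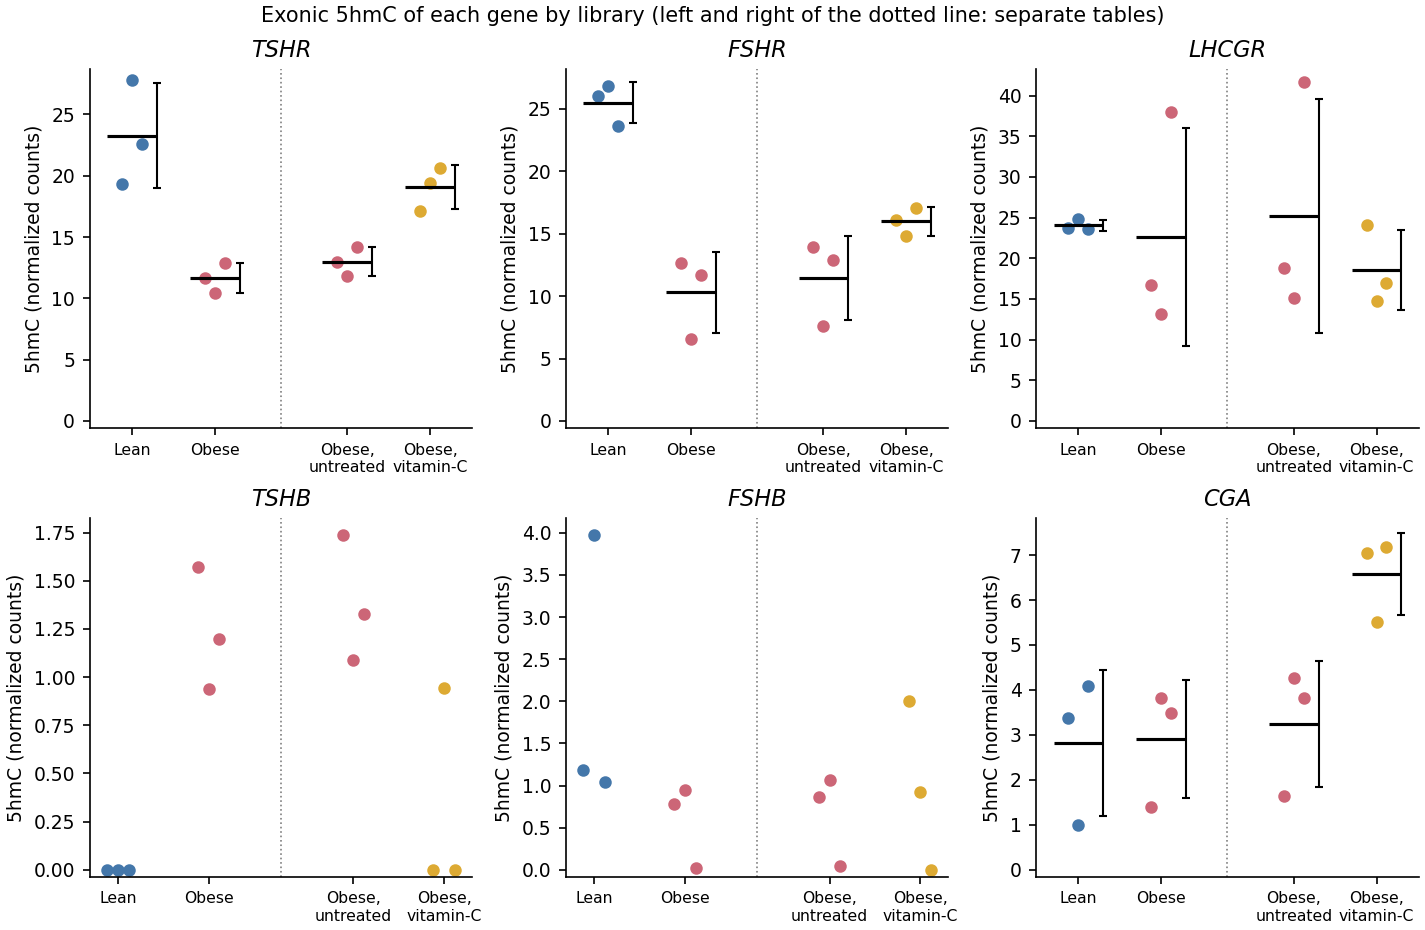
Normalized counts of exonic 5hmC (y axis, a separate scale for each gene) in each library, for Lean and Obese on the left of the dotted line and for untreated and vitamin-C-treated Obese on the right, which come from separately normalized tables. Points are libraries, and for TSHR, FSHR, LHCGR and CGA the horizontal line is the mean and the bar 1 SD (n = 3); TSHR and FSHR show the Obese libraries below all Lean libraries and the treated libraries above all untreated ones, and LHCGR shows Obese 3 apart at 38.0.

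By the criteria, 2 of the 6 members, TSHR and FSHR, were low in Obese-MSCs, beside 2.43% of all 18933 genes. High 5hmC was met by 1 member, TSHB, beside 2.07% of all genes. The groups did not overlap for 4 members, TSHR, FSHR, TSHB and FSHB, beside 11.8% of all genes. The set was chosen for the first of these, so nothing is read from the counts. The limma model on log2(value + 1), which tested 15146 genes, had no gene with an adjusted p of 0.05 or less (0%). The smallest adjusted p in limma was 0.128, and 1031 genes had an unadjusted p of 0.05 or less.

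**Figure D2:**
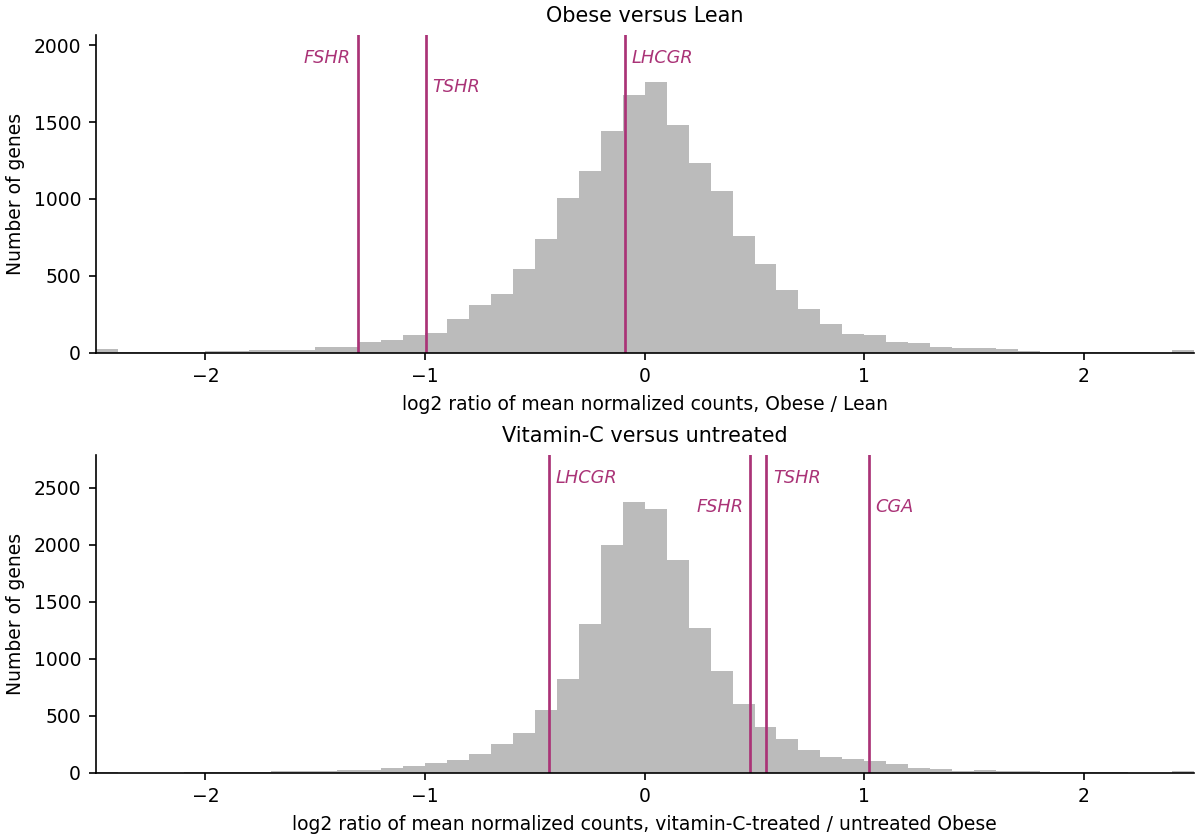
Number of genes (y axis) by log2 ratio of mean normalized counts (x axis), for Obese versus Lean above and vitamin-C-treated versus untreated Obese below, with ratios beyond 2.5 in either direction drawn in the outermost bars. Vertical lines mark the members with a group mean above 3 normalized counts; FSHR at −1.31 and TSHR at −0.998 lie in the lower tail above, and TSHR, FSHR and CGA lie to the right of the bulk below at 0.55, 0.48 and 1.02.

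With vitamin-C, the question was whether the agent moved 5hmC in Obese-MSCs. TSHR had 17.1, 19.4 and 20.6 normalized counts in treated 4, 5 and 6, and 12.9, 11.8 and 14.2 in untreated 1, 2 and 3. All treated libraries were above all untreated libraries. The means were 19.1 ± 1.79 and 13.0 ± 1.17 (SD, n = 3 each), a ratio of 1.47 and a log2 ratio of 0.55 that stayed between 0.49 and 0.63 with single libraries left out, and TSHR met the criteria as high in each of these settings. Of 16741 genes with a ratio, 7.71% had a higher one. Because TSHR was picked for low values in the untreated libraries, this ratio is a description.

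FSHR had 16.1, 14.8 and 17.0 normalized counts in treated 4, 5 and 6, and 13.9, 7.59 and 12.8 in untreated 1, 2 and 3. The groups again did not overlap, and the untreated libraries were the more dispersed because of untreated 2. The means were 16.0 ± 1.13 and 11.5 ± 3.39 (SD, n = 3 each), and the ratio of 1.39 lay just below the criterion of 1.4. FSHR did not meet the criteria, and the ratio was not the only reason. Without untreated 1 the log2 ratio rose to 0.64, where the ratio passed but the p-value did not. The log2 ratio of 0.48 fell to 0.25 without untreated 2. FSHR had the same selection as TSHR, and its ratio is likewise a description.

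CGA had the highest vitamin-C ratio of the members with one, though its untreated mean was just above the floor of 3. It had 7.04, 5.52 and 7.18 normalized counts in treated 4, 5 and 6, and 1.64, 4.26 and 3.83 in untreated 1, 2 and 3. Within 0.01, 537, 106 and 29 other genes had its value in treated 4, 5 and 6. In untreated 1, 2 and 3 these were 61, 80 and 85 genes. The lowest treated library was above the highest untreated one. The means were 6.58 ± 0.919 and 3.24 ± 1.41 (SD, n = 3 each), a ratio of 2.03 and a log2 ratio of 1.02, and 2.02% of those genes had a higher ratio. CGA met the criteria as high, but not when treated 4, treated 6 or untreated 3 was left out, with log2 ratios of 0.97, 0.95 and 1.16. Over all single libraries left out the log2 ratio ranged from 0.70 to 1.27, and it was lowest without untreated 1. The two-sided exact permutation test over the 20 arrangements gave p = 0.1, the smallest value that 3 against 3 allows. In limma the difference on the log2(value + 1) scale was 0.89 (SE 0.49, 95% interval −0.15 to 1.94), with an adjusted p of 1.00 over 15194 genes.

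LHCGR, the third receptor, had 24.1, 14.7 and 17.0 normalized counts in treated 4, 5 and 6, and 18.8, 15.2 and 41.6 in untreated 1, 2 and 3. The groups overlapped, and untreated 3 stood above all other libraries as the same library did in the first table. The means were 18.6 ± 4.91 and 25.2 ± 14.3 (SD, n = 3 each), a log2 ratio of −0.44 that turned to 0.13 without untreated 3. The limma difference of −0.31 (SE 0.37, 95% interval −1.11 to 0.48) had an adjusted p of 1.00, and the exact permutation test gave p = 0.6. The interval leaves room for changes of either sign.

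TSHB had 0.000459, 0.943 and 0 normalized counts in treated 4, 5 and 6, and 1.74, 1.09 and 1.33 in untreated 1, 2 and 3. The treated libraries were all below the untreated ones and TSHB met the criteria as low, with p = 0.1 in the exact permutation test. As in the first table these are values of the bottom class and no fold is given. FSHB had 2.01, 0.919 and 0 in treated 4, 5 and 6, and 0.863, 1.07 and 0.0410 in untreated 1, 2 and 3. Its groups overlapped, with p = 0.7 in the exact permutation test.

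By the criteria, 2 members, TSHR and CGA, were high with vitamin-C, beside 1.11% of all 18992 genes, and 1 member, TSHB, was low, beside 0.806%. The groups did not overlap for 4 members, TSHR, FSHR, TSHB and CGA, beside 5.91% of all genes. TSHR and FSHR were chosen for low values in the untreated libraries, so nothing is read from these counts either. In limma 0% of the 15194 genes tested had an adjusted p of 0.05 or less, and 148 had an unadjusted p of 0.05 or less. No member among the genes tested therefore passed, and TSHB and FSHB were too low for the limma filter and had no adjusted test. LHCGR, TSHB, FSHB and CGA were each tested by exact permutation, which cannot reach 0.05 with 3 libraries against 3.

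The treated means of TSHR and FSHR stood between the untreated and the Lean levels only across tables. The treated mean of TSHR was 19.1 in its own table and the Lean mean 23.3 in the other, and for FSHR they were 16.0 and 25.5. Since the untreated libraries read about 1.1 times higher in the vitamin-C table, with factors of 1.11, 1.14 and 1.10 for TSHR, these levels do not share a scale, and no test of treated against Lean was made.

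The genes around the receptors were compared to see whether low 5hmC was spread over their regions. The window of 1 Mb on each side was chosen after the values were seen. Around TSHR, the flanking CEP128, a centrosomal gene 7.94 kb away, and GTF2A1, a transcription factor subunit 38.1 kb away, had Obese to Lean ratios of 1.03 and 1.04 and treated to untreated ratios of 1.04 and 0.723. All 6 other genes of the window gave a median log2 ratio of −0.07, from −0.58 to 0.18, with 3 lower, 3 higher and none meeting the criteria. The window also holds DIO2, the deiodinase that activates thyroid hormone and a known target of TSH signalling in adipose cells. The Obese to Lean ratio of DIO2 was 1.14 with overlapping groups, and its treated to untreated ratio was 0.750 with groups that did not overlap.

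Around FSHR, 5 of the 6 other genes analysed had a lower mean 5hmC in Obese-MSCs and 1 a higher, with a median log2 ratio of −0.24, from −0.58 to 0.25. None of these 6 met the criteria. FSHR had a lower ratio than each of them, but it was chosen for its low value, so its rank among them is a description. With vitamin-C the 6 genes had a median log2 ratio of 0.07, with 4 higher, 2 lower and none meeting the criteria.

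**Figure D3:**
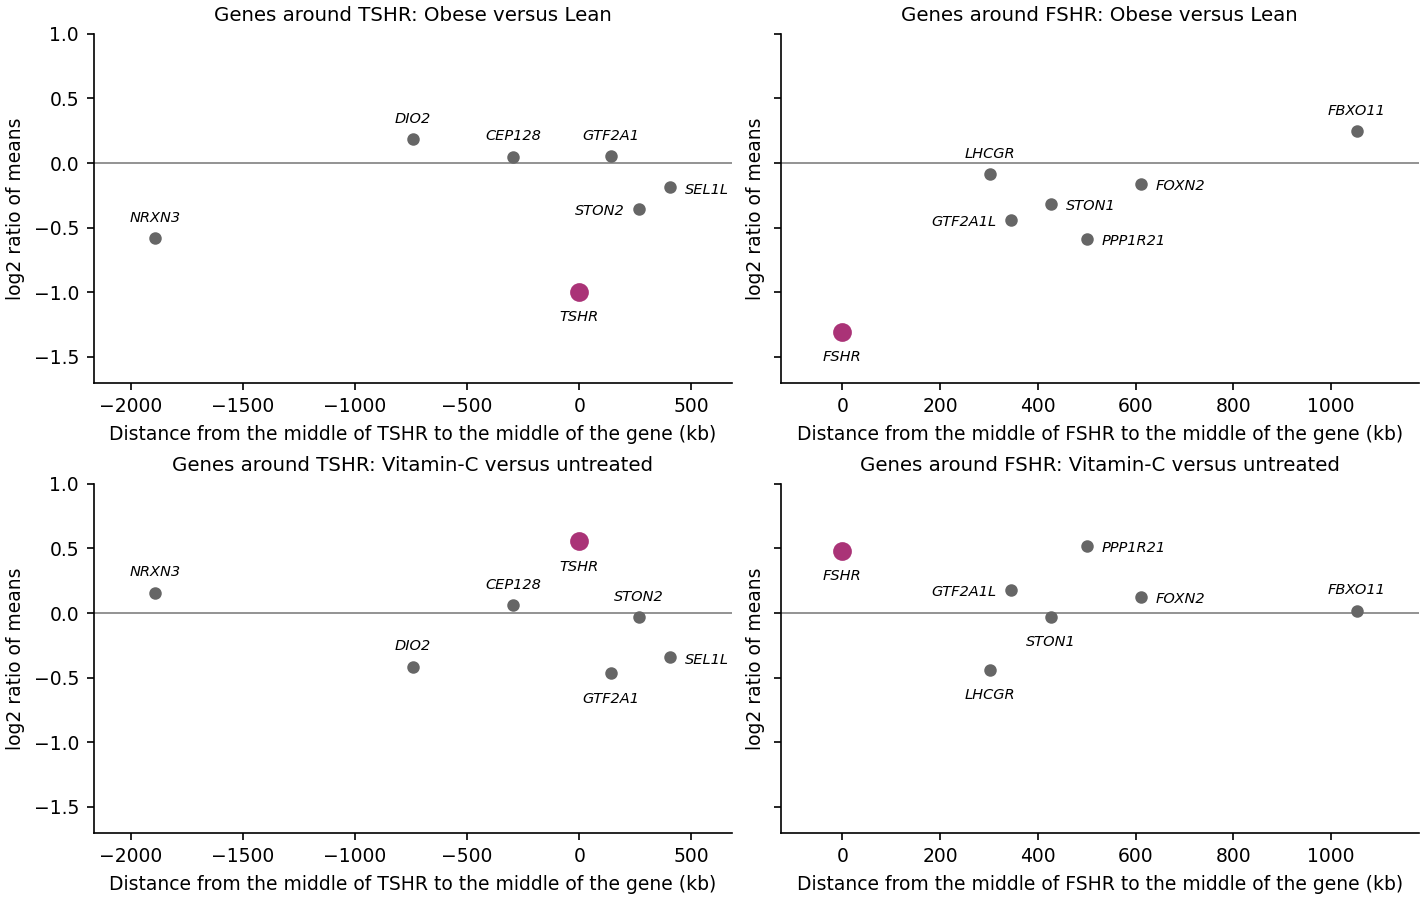
Log2 ratio of mean normalized counts (y axis) of TSHR (left), FSHR (right) and the other genes analysed within 1 Mb of either, by the distance between gene middles in kb (x axis), for Obese versus Lean above and vitamin-C-treated versus untreated below. The large points are TSHR and FSHR, which were chosen as low in Obese-MSCs and lie below every other gene drawn in their windows above (−0.998 and −1.31); below, TSHR lies above its neighbours, whereas PPP1R21 exceeds FSHR.

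Around the subunits, no other gene met the criteria near FSHB (4 genes) or CGA (13 genes) in either comparison, and 1 of 15 did near TSHB. That gene was NHLH2, a neuronal transcription factor, at a mean of 4.54 for Obese and 8.74 for Lean (ratio 0.519). The nearest genes of CGA were LOC100151959, 61.1 kb away, and ZNF292, a zinc-finger gene 46.2 kb away. LOC100151959 had a mean of 2.86 ± 1.88 in treated and 0.305 ± 0.506 in untreated libraries (SD, n = 3 each), higher in every treated library as CGA was, with no fold because both means were under 3. ZNF292 had a vitamin-C ratio of 0.810 with overlapping groups, and its Obese mean of 32.6 ± 7.18 and Lean mean of 22.9 ± 4.72 (SD, n = 3 each) came from groups that did not overlap. Over the 12 genes of that window with a ratio, 5 were higher with vitamin-C and 7 lower, with a median log2 ratio of −0.12.

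The genes whose 5hmC followed that of a receptor most closely were ranked by the lower of 2 Pearson correlations, each over the 6 libraries of a table, among 9122 genes of the upper 50% by mean for TSHR and 9123 for FSHR. The tables share the 3 untreated libraries, and the correlations are a description. For TSHR the leading genes were CLIC6, an intracellular chloride channel family member (r = 0.943 and 0.936), PDIA4, a protein disulfide isomerase of the endoplasmic reticulum (0.970 and 0.926), and NGRN, a mitochondrial RNA-binding protein (0.922 and 0.954). Their Obese to Lean ratios were 0.586, 0.721 and 0.615, and their treated to untreated ratios were 1.603, 1.48 and 1.4.

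NGRN, for example, had 11.6, 11.4 and 11.8 normalized counts in Obese 1, 2 and 3, and 18.1, 17.9 and 20.5 in Lean 7, 8 and 9. In the other table it had 16.1, 17.6 and 20.6 in treated 4, 5 and 6, and 13.0, 12.9 and 13.0 in untreated 1, 2 and 3. Neither pair of groups overlapped. For FSHR the leading genes were LOC110255349 (0.950 and 0.968), LOC100515345 (0.963 and 0.934) and ATP1B2, a beta subunit of the sodium pump (0.882 and 0.936). TSHR and FSHR were correlated with each other at 0.925 in the Obese and Lean table and 0.789 in the vitamin-C table. Both were chosen for low values in the same Obese libraries, so nothing is read from these correlations.

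Genes that act with these hormones were collected in 6 lists of 84 genes, of which 82 were in the tables and PAX8 and DIO3 were not found by symbol. In Obese-MSCs 3 of the 82 were high (3.66%) and 3 were low (3.66%), beside the 2.07% and 2.43% of all genes given above, and with vitamin-C 0 were high and 0 low by the criteria, with none past an adjusted p of 0.05 in limma. The receptor signalling list, 30 genes from G proteins and adenylyl cyclases to protein kinase A, phosphodiesterases and arrestins, had 19 genes higher and 11 lower in Obese-MSCs, with a median log2 ratio of 0.16 beside 0.01 for all genes. None of them met the criteria in either comparison. With vitamin-C its median was −0.01.

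LHB, the beta subunit of luteinizing hormone and the only pituitary beta subunit that is not a member, had 24.8, 35.2 and 18.0 normalized counts in Obese 1, 2 and 3, and 29.4, 28.8 and 33.9 in Lean 7, 8 and 9. With vitamin-C it had 16.1, 24.1 and 34.2 in treated 4, 5 and 6, and 27.6, 39.5 and 19.9 in untreated 1, 2 and 3. Its groups overlapped in both comparisons, and its values were above 3 in every library. GPHA2 and GPHB5, the subunits of thyrostimulin, which also binds TSHR, did not meet the criteria either. Among 5 relatives of the receptors with leucine-rich repeats, RXFP1, the relaxin receptor, was the only one called. It was low in Obese-MSCs, with 18.8 ± 4.92 against 27.8 ± 2.54 (SD, n = 3 each) and a ratio of 0.677, and had overlapping groups with vitamin-C, at a ratio of 1.21.

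The list of upstream hormones and pituitary regulators held 14 genes, and 2 were high and none low in Obese-MSCs. Of the 9 genes with a ratio, 3 were higher and 6 lower in Obese-MSCs, with a median log2 ratio of −0.48. With vitamin-C 8 of 10 were higher and 2 lower, with a median of 0.33, and none met the criteria. TRHR, the receptor of thyrotropin-releasing hormone, had 1.46, 2.86 and 2.36 normalized counts in Obese 1, 2 and 3, and 1.10, 0 and 0.00229 in Lean 7, 8 and 9. Like TSHB it was under the floor of 3 in every library of that table. FST, the activin-binding protein follistatin, which lowers FSH release, had 14.5 ± 2.33 against 9.73 ± 1.53 (SD, n = 3 each), a ratio of 1.49. With vitamin-C the ratio of FST was 0.927 with overlapping groups.

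Of 17 thyroid genes, 15 were in the tables, 1 was high and 2 were low in Obese-MSCs. TG, which encodes thyroglobulin, the precursor of thyroid hormone, had 87.6, 94.8 and 114 normalized counts in Obese 1, 2 and 3, and 33.2, 72.5 and 51.4 in Lean 7, 8 and 9. The groups did not overlap, and the ratio of means was 1.89 (98.7 ± 13.6 against 52.4 ± 19.7, SD, n = 3 each). TG overlaps SLA in the annotation, so the origin of these fragments is uncertain where exons are shared.

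THRB, a nuclear receptor of thyroid hormone, had 220, 215 and 132 normalized counts in Obese 1, 2 and 3, and 307, 275 and 267 in Lean 7, 8 and 9. All Obese libraries were below the Lean libraries, with Obese 3 far below the rest, and the ratio was 0.669. DUOX1, an oxidase that supplies hydrogen peroxide for hormone synthesis, was low at 17.0 ± 4.92 against 27.6 ± 2.81 (ratio 0.617, SD, n = 3 each). With vitamin-C the ratios of TG, THRB and DUOX1 were 1.00, 1.06 and 1.25, and the groups of all 3 overlapped. The log2 ratios of the list had a median of 0.03 for Obese-MSCs versus Lean-MSCs and 0.00 with vitamin-C, beside 0.01 for all genes in both.

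None of the 15 gonadal genes, among them the steroidogenic enzymes and the estrogen receptors, met the criteria in either comparison. Their median log2 ratio was −0.05 for Obese-MSCs versus Lean-MSCs and −0.03 for vitamin-C.

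**Figure D4:**
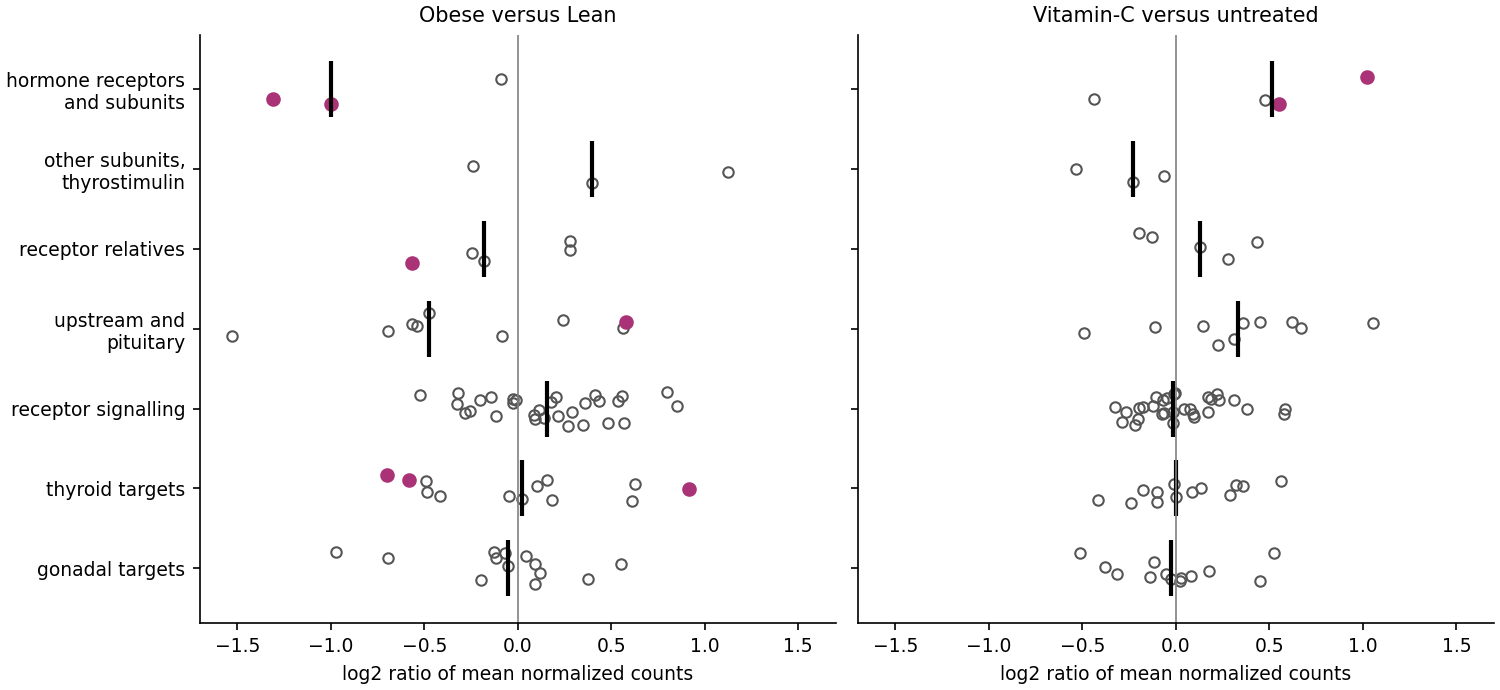
Log2 ratio of mean normalized counts (x axis) of the members and of the genes of each of the 6 lists (rows), for Obese versus Lean on the left and vitamin-C-treated versus untreated Obese on the right. Points are genes with a group mean above 3 normalized counts, filled points met the criteria, and the vertical line of each row is its median; filled points lie on both sides of 0 on the left, and on the right only TSHR and CGA are filled.

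Levels of 5hmC are also given for the surface marker genes of the labelled cell type. They are not a measure of expression and cannot check the cell type. Mean levels of NT5E, THY1 and ENG were 30.9, 21.8 and 57.3 normalized counts in Obese-MSCs and 26.9, 17.1 and 40.4 in Lean-MSCs. Of the genes that define other cells, CD34 had 18.7 and 17.8 and PTPRC 46.9 and 59.3, while CD14 was listed at 0 in all Lean libraries and at 0.650, 0.924 and 4.49 in Obese 1, 2 and 3. The Obese and Lean groups did not overlap for ENG (ratio 1.42) and CD14, and overlapped for NT5E, THY1, CD34 and PTPRC. None of the 6 met the criteria in either comparison, and their part in the results above was not tested. Over all genes the median correlation of library pairs was 0.893 within and 0.892 between Obese-MSCs and Lean-MSCs. In the vitamin-C table the closest pairs joined treated 5 with untreated 2 (r = 0.932) and treated 4 with untreated 1 (0.929), above all pairs within a group (at most 0.901), whereas the highest correlation of treated 6 was 0.892, with untreated 3. The labels do not pair these libraries, and they were analysed as unpaired.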

How the data were processed

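The authors aligned paired hMeDIP-seq reads of 9 swine MSC libraries to the porcine assembly with Bowtie2 2.3.3.1, removed duplicates with Picard 1.67, counted fragments over exons with HTSeq 0.9.1 and processed the counts with edgeR 3.28.1. The deposited signal per gene is a fractional, never negative normalized count. Whole reads were not recovered from it, so no test for counts was run. Sequencing depth is unknown. Per the labels, groups had 3 libraries each, and no per-sample column was left out (0). For treated and untreated Obese-MSCs, 645 tiny residues around 0 were replaced by 0, and 25 gene names had been turned into dates.

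The members and all lists were chosen with earlier results of these data known. Genes were called by the study's criteria, applied to each gene of the deposited tables. They ask for an unadjusted two-sided p of at most 0.05 under equal variances and a ratio of means of 1.4 or more, or 0.7 or less. limma 3.58.1 in R 4.3.3 was fitted with a trend to log2(value + 1), over the upper 80% of genes by mean, with Benjamini-Hochberg adjustment over all genes tested. The pseudocount of 1 makes fold changes of low genes smaller. Single values were tested by two-sided exact permutation over 20 arrangements. No fold is given or ranked where both group means were at or under 3. Named genes were the members, the nearest gene on each side, the 3 genes most like TSHR and FSHR, and list genes that met the criteria. The nearest genes of TSHB and FSHB are given only within their windows. DIO2, NHLH2, LHB, GPHA2, GPHB5, PPP1R21 and the MSC markers NT5E, THY1, ENG, CD34, PTPRC and CD14 fall outside this rule and were named after their values were seen. A gene near FSHR and a listed thyroid gene are not reported here and stand in no count of their window or list. Positions were taken by symbol from RefSeq genes of Sscrofa11.1 for all 6 members. Scripts were tested on simulated data and used Python 3.11.15, numpy 2.4.6, pandas 2.3.3, scipy 1.17.1 and matplotlib 3.10.9. Alternatives were the p threshold, test scale, variance model, scaling, pseudocount, filter and leaving out each library.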

Additional observations from a re-analysis of the deposited data

How the results depend on the processing

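Of 63 alternative log2 ratios of TSHR, FSHR, LHCGR and CGA, 62 moved by less than the spread between replicates of the same gene. That of LHCGR without Obese 3 moved by more (−0.69 against −0.09). The spread of LHCGR was wide, and its log2 ratio changed sign within it. It was 0.09 without Obese 1 and 0.19 without Obese 2, and with vitamin-C it was 0.13 without untreated 3. In Obese-MSCs versus Lean-MSCs the count of members meeting the criteria was 3, and it was 2 to 4 over all alternatives. TSHR was lost at a p-value of 0.01, and LHCGR was added as low without Obese 3. With vitamin-C the count of 3 fell to 1 at a p-value of 0.01 and to 1 with the test on log2(value + 1), and ranged from 1 to 3 with single libraries left out. In this comparison TSHR met the criteria under every alternative run. Because TSHR was picked for low values in the same untreated libraries, its calls are a description and are not weighed against those of other members. CGA and TSHB were lost at the stricter p-value, on the log2 scale and without treated 4, treated 6 or untreated 3. TSHB was also lost with unequal variances, with quantile normalization and without untreated 1 or untreated 2. In limma the count of genes past an adjusted p of 0.05 in Obese-MSCs versus Lean-MSCs ranged from 0 to 1 with single libraries left out, with 1 gene without Obese 1 and 1 without Obese 2, and was 0 under the other alternatives. With vitamin-C it was 0 under all of them. Where a call was lost, the cause was not tested, apart from the fewer libraries of each leave-out. No paired analysis was run, because the labels do not tie a treated culture to an untreated one. If treated and untreated cultures share pigs, the unpaired tests and calls with vitamin-C ignore that pairing. Group means under 3 leave TSHB, FSHB and, in Obese-MSCs versus Lean-MSCs, CGA without a fold.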
